A study of Mus musculus with 48 samples.

Results

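Expression of 8 genes for neurotrophins and for receptors of neurotrophins and of the GDNF family was followed through the life of the mouse cortex. The genes are Bdnf, Ntf3, Ntrk2, Ntrk3, Ngfr, Gfra1, Gfra2 and Ret. They were taken by symbol from the 24444 genes of the deposited table, and all 8 were found there with a value in each of 48 samples. The samples are RNA-seq libraries from male C57BL/6J mice, in which WT animals were compared with Chd8 V986*/+ animals that carry a premature stop codon in 1 copy of the chromatin remodeler gene Chd8. There are 6 WT and 6 Chd8 V986*/+ animals per age, at E14.5 and after 1, 6 or 12 months of life, and each library was made from the cortex of one hemisphere. All mutant animals descend from a single edited line, and the stop codon is present in every cell, so a difference cannot be assigned to one cell type. Values are variance-stabilizing transformation (VST) values, a log2-like scale on which high levels differ by about 1 for each doubling. Differences are compressed near the floor of the table, its most frequent value, at 2.1433. They are not scaled by gene length, so levels were compared between animals for 1 gene at a time and not between genes.

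Neurotrophins are secreted proteins that keep neurons alive, shape their branches and tune their synapses. Each mature neurotrophin binds a preferred Trk receptor tyrosine kinase, BDNF binding TrkB (Ntrk2) and NT-3 binding TrkC (Ntrk3), whereas the p75 receptor (Ngfr) binds all of them and also their uncleaved precursors. Ligands of the GDNF family bind GFR-alpha co-receptors such as Gfra1 and Gfra2 on the cell surface, and these complexes signal through the receptor tyrosine kinase Ret or, in some neurons, through the adhesion molecule Ncam1. In the cortex, BDNF is made mainly by excitatory neurons in response to activity, and TrkB is made by neurons and, in a form without the kinase domain, by astrocytes.

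In the mm9 annotation (GENCODE M1), Bdnf (ENSMUSG00000048482.7) lies on the plus strand at chr2:109514857-109567204 with 10 annotated transcripts, which the table sums in 1 value. These transcripts start at different promoters and share a coding exon. To show what is summed, 2 of the 7 Bdnf promoters listed in RefSeq (GRCm38.p6) are given as the 100 bases before the start site on the plus strand. Capitals mark TCACGTCA, an octamer known as a cyclic AMP response element through which CREB acts on this gene. Only exact matches are marked, so a stretch without capitals is not shown to lack a site for CREB.
Bdnf, chr2:109674600-109674699: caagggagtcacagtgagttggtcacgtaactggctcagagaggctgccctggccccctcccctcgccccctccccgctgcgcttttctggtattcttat
Bdnf, chr2:109692336-109692435: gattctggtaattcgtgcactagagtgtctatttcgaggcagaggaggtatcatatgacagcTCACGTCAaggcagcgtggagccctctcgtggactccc
The octamer begins at position −38 from the start site of the second promoter. On either strand, it occurs in 0.441% of the 32851 promoters of the RefSeq table and in no other of the 12 promoters that the table holds for 5 of the 8 genes (Bdnf, Ntf3, Ngfr, Ntrk2 and Gfra1). The related octamer TGACGTCA occurs in 1.79% of all promoters and in none of these 12. The VST table does not separate the promoters, so no value below can be assigned to one of them.

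The other genes lie at chr6:126051431-126116762 (Ntf3, minus strand), chr13:58907957-59235331 (Ntrk2, plus), chr7:85337248-85723294 (Ntrk3, minus), chr11:95430132-95449049 (Ngfr, minus), chr19:58310094-58530399 (Gfra1, minus), chr14:71289927-71379645 (Gfra2, plus) and chr6:118101766-118147762 (Ret, minus) of mm9. The only annotated gene that overlaps one of the 8 is Gm16277, on the strand opposite to the end of Gfra1.

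Differences were tested with limma across all genes that passed a filter on low values with Benjamini-Hochberg adjustment. A gene is said to be called where its adjusted p was below 0.1, the threshold used in the study. The study applied it to another test (DESeq2), so the calls here are not those of the study. Each of the 8 genes passed the filter in every comparison. Chd8 itself was lower in Chd8 V986*/+ cortex at every age, by between 0.54 and 0.67 on the VST scale, with no overlap between genotypes. The cortical markers Tbr1 and Slc17a7 were expressed at every age. At E14.5, WT replicate 5 stood apart, with the highest level of genes of the midbrain, hindbrain and spinal cord, and values without it are given where they differ by over 1.5 times or lose a call. Same-numbered animals were not treated as pairs. Nothing in the labels says how littermates were spread over the samples.

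For every gene but Ntf3, the largest changes were those between E14.5 and 1 month, the period in which cortical neurons mature. These changes went in the same direction in both genotypes. In WT cortex, all 8 genes were called, 6 higher and 2 lower at 1 month, where 85.7% of all tested genes were called, 43.4% higher and 42.3% lower. In Chd8 V986*/+ cortex, 7 of 8 were called, 5 higher and 2 lower, where 86.1% of all tested genes were called, 43.7% higher and 42.4% lower. With most of the transcriptome changing between these ages, the number of called genes does not set the 8 genes apart.

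**Figure D1:**
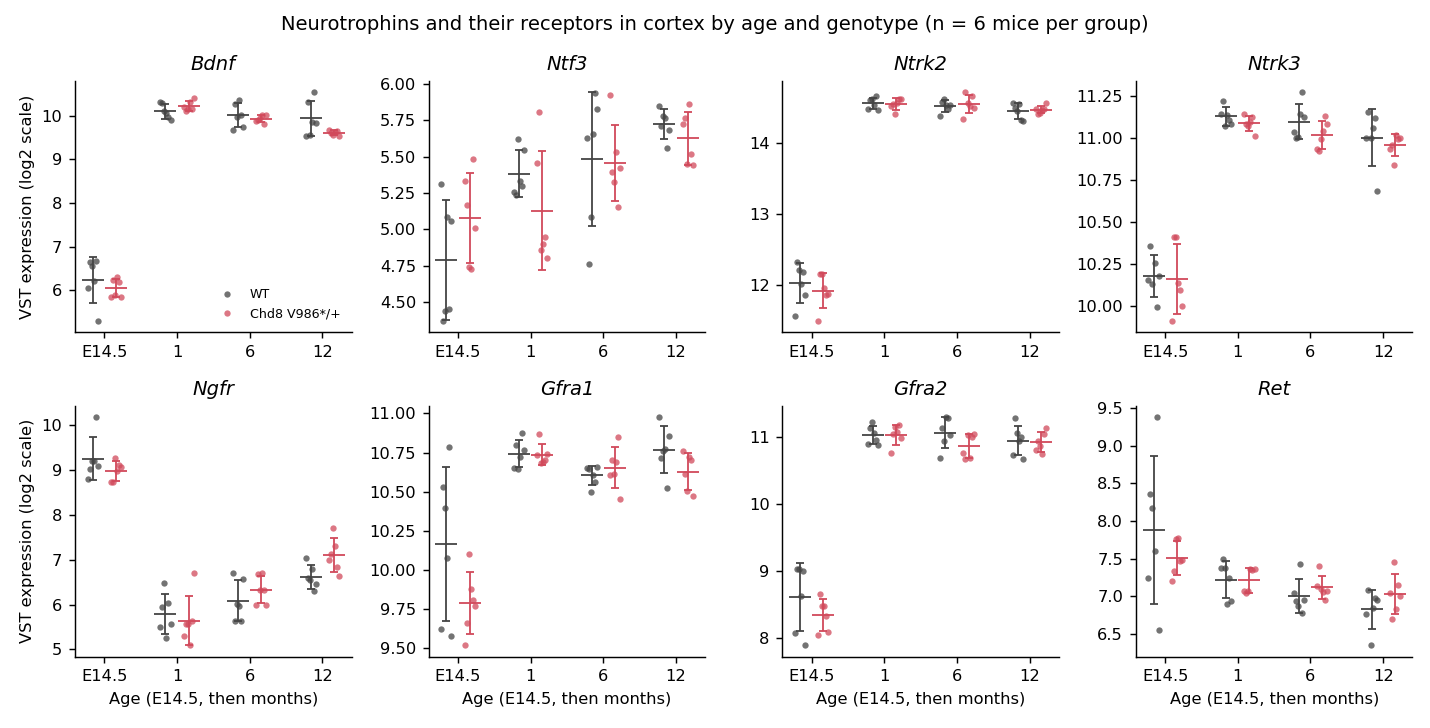
VST expression (log2 scale, vertical axes, 1 range per gene) of the 8 genes at E14.5, 1, 6 and 12 months in WT (grey) and Chd8 V986*/+ (red) cortex, with a point per animal, a horizontal bar for the mean and a vertical bar for the SD of 6 animals. Bdnf, Ntrk2 and Gfra2 are far higher at 1 month than at E14.5 and Ngfr far lower, in both genotypes, and the points of the 2 genotypes overlap for every gene at every age.

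Bdnf had the largest increase of the 8 genes. In WT embryos, its VST values were between 5.30 and 6.67 with a median of 6.39, and at 1 month between 9.90 and 10.32 with a median of 10.08. In Chd8 V986*/+ animals, they were between 5.84 and 6.30 (median 6.05) at E14.5 and between 10.10 and 10.41 (median 10.18) at 1 month. The ages did not overlap in either genotype. Bdnf rose by 3.86 ± 0.19 (SE) in WT and by 4.17 ± 0.09 in Chd8 V986*/+ cortex (limma, adjusted p = 1.74e-11 and 5.21e-16), which is 14.5-fold and 17.9-fold on the VST scale.

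Ntf3, which encodes NT-3, rose in WT cortex over the same interval and was not called in Chd8 V986*/+ cortex. In WT cortex, its values went from a range of 4.37 to 5.31 (median 4.75) at E14.5 to 5.23 to 5.62 (median 5.32) at 1 month, ranges that overlap in part. It rose by 0.59 ± 0.18 in WT (adjusted p = 0.0056). In Chd8 V986*/+ cortex, the median was 5.09 at E14.5 and 4.92 at 1 month, and the difference of the means was 0.05 ± 0.19 (adjusted p = 0.81), a value whose sign depends on the scaling. After quantile normalization, which moved the median difference of all genes from 0.02 to −0.10 in both genotypes, the Ntf3 difference was 0.27 in WT and no longer called, and −0.28 in Chd8 V986*/+ cortex.

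Both Trk receptor genes rose with Bdnf. Ntrk2 had WT values between 11.56 and 12.32 (median 12.10) at E14.5 and between 14.47 and 14.66 (median 14.57) at 1 month. It rose by 2.54 ± 0.10 in WT and by 2.64 ± 0.09 in Chd8 V986*/+ cortex (adjusted p = 1.66e-12 and 1.23e-13). The table sums the full-length and truncated forms of TrkB, so neither form can be followed. Ntrk3 rose less, from a WT median of 10.16 to 11.12, by 0.95 ± 0.06 in WT and 0.93 ± 0.08 in Chd8 V986*/+ cortex (adjusted p = 1.77e-10 and 9.73e-09), without overlap between the ages.

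Ngfr went the other way. Its WT values were between 8.80 and 10.19 (median 9.15) at E14.5 and between 5.24 and 6.47 (median 5.76) at 1 month, and those of Chd8 V986*/+ animals between 8.73 and 9.27 (median 9.03) and between 5.09 and 6.70 (median 5.56). No animal at 1 month reached the lowest embryo. Ngfr fell by 3.46 ± 0.23 on the VST scale in WT and by 3.34 ± 0.21 in Chd8 V986*/+ cortex (adjusted p = 6.35e-10 and 1.74e-10). The RNA levels of Ngfr and Ntrk2 thus changed in opposite directions over the same interval.

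The co-receptor genes of the GDNF family rose, Gfra2 far more than Gfra1. Gfra2, the preferred co-receptor of neurturin, had WT values between 7.89 and 9.03 (median 8.81) at E14.5 and between 10.88 and 11.21 (median 11.001) at 1 month. It rose by 2.42 ± 0.18 in WT and 2.69 ± 0.10 in Chd8 V986*/+ cortex (adjusted p = 3.18e-09 and 2.47e-13). Gfra1, the preferred co-receptor of GDNF, was spread from 9.58 to 10.79 in WT embryos and from 9.52 to 10.10 in Chd8 V986*/+ embryos. At 1 month it lay between 10.65 and 10.87 in WT and between 10.68 and 10.87 in Chd8 V986*/+ mice. It rose by 0.58 ± 0.17 in WT, with overlap from WT embryo 5 alone, and by 0.95 ± 0.08 in Chd8 V986*/+ cortex without overlap (adjusted p = 0.0056 and 7.04e-09).

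Ret, the signaling receptor that both co-receptors use, was lower at 1 month. WT embryos were spread from 6.55 to 9.38 (median 7.89, SD 0.98) and WT mice of 1 month from 6.90 to 7.50 (median 7.31). Ret fell by 0.66 ± 0.34 on the VST scale in WT (adjusted p = 0.085) and by 0.29 ± 0.11 in Chd8 V986*/+ cortex (adjusted p = 0.022). The WT call was lost without any of WT embryos 2, 3 or 5 or WT 1-month mice 1, 4, 5 or 6, and the difference was −0.37 without WT embryo 5. The Chd8 V986*/+ call was lost in one fit of all 48 samples (adjusted p = 0.21).

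Other ligands and receptors of these families were fixed as lists of 8 ligands and 11 receptors, which include the 8 genes. Of the 8 ligands, 5 rose and none fell in WT between E14.5 and 1 month, where 43.4% of all tested genes were called higher and 42.3% lower, with a list median of 0.57 against 0.02 over all tested genes. In Chd8 V986*/+ cortex 6 rose, where 43.7% of all genes did, with a median of 0.89 against 0.02. Nrtn (neurturin) rose by 0.87 ± 0.18 in WT and 1.45 ± 0.14 in Chd8 V986*/+ cortex, and Artn (artemin) by 0.55 ± 0.18 and 0.91 ± 0.24. Gdnf rose in Chd8 V986*/+ cortex by 0.75 ± 0.18 and differed by 0.27 ± 0.27 in WT (adjusted p = 0.37). Ntf5 (NT-4) rose by 0.87 ± 0.21 in Chd8 V986*/+ cortex and differed by −0.16 ± 0.29 in WT, at a level close to the floor. Pspn (persephin), also close to the floor, differed by −0.09 ± 0.25 and 0.01 ± 0.23. Whether Gdnf or Ntf5 changed differently between the genotypes was tested, and neither was called (differences of 0.48 ± 0.31 and 1.03 ± 0.36, unadjusted p = 0.13 and 0.0061, adjusted p = 0.999 for both, limma).

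Among the 11 receptors, 6 rose and 4 fell in WT and 7 rose and 4 fell in Chd8 V986*/+ cortex, with list medians of 0.58 and 0.93. The called share of the list was thus near that of all genes (85.7% and 86.1%). Gfra4, the persephin co-receptor, rose by 2.44 ± 0.13 and 2.49 ± 0.10, and Sort1 (sortilin, the partner of p75 for uncleaved neurotrophins) by 1.71 ± 0.08 and 1.70 ± 0.09. Ncam1 fell by 1.00 ± 0.13 on the VST scale in WT and by 0.94 ± 0.10 in Chd8 V986*/+ cortex, and Gfra3, the artemin co-receptor, by 0.97 ± 0.43 and 0.75 ± 0.24. Gfra3 lay near the floor, and WT embryo 5 (5.72) was far above the other WT embryos (2.70 to 3.63). Without that embryo Gfra3 fell by 0.54 ± 0.27 in WT (adjusted p = 0.075).

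After the first month, most of the 8 genes moved little, and Bdnf, Ngfr and Ntf3 made up most of the calls. Between 1 and 6 months, 1 of 8 genes was called in WT, where 24.6% of all tested genes were called, and 2 of 8 in Chd8 V986*/+ cortex, where 26.8% were. Between 6 and 12 months, none was called in WT by limma (2 of 8 at unadjusted p below 0.05, and 0.00579% of all genes called) and 2 of 8 were called in Chd8 V986*/+ cortex (3.43% of all genes). Over the whole span from 1 to 12 months, a comparison added after the values were seen, 3 of 8 were called in WT (21.4% of all genes) and 4 of 8 in Chd8 V986*/+ cortex (39% of all genes). These comparisons share the animals of the ages they have in common and are not independent of each other. The spread differed between the groups compared: at 12 months, the SD of the median gene was 0.18 among WT mice but 0.12 among Chd8 V986*/+ mice.

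**Figure D2:**
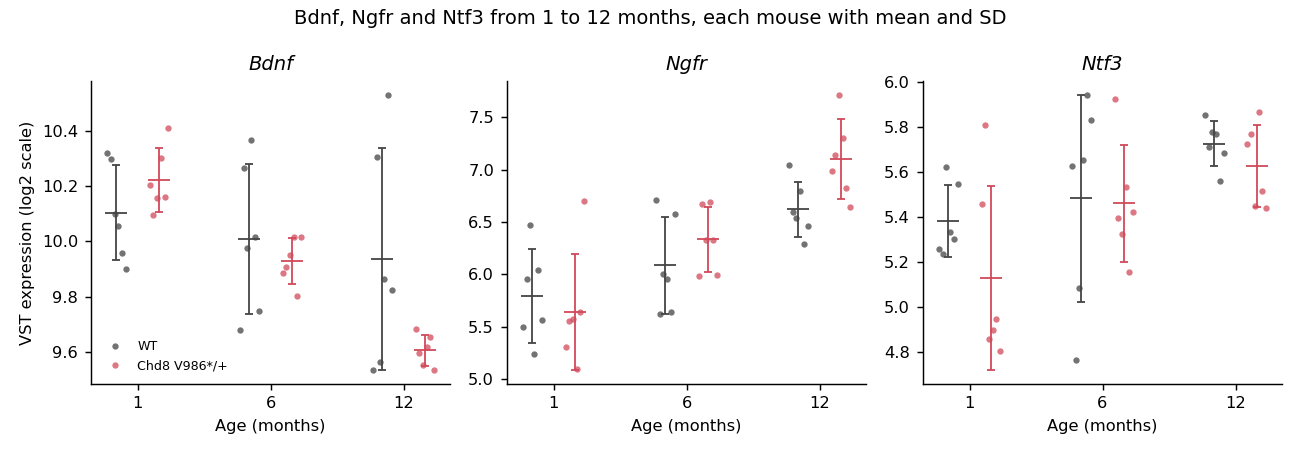
VST expression (log2 scale, vertical axes) of Bdnf, Ngfr and Ntf3 at 1, 6 and 12 months in WT (grey) and Chd8 V986*/+ (red) cortex, with a point per mouse, a horizontal bar for the mean and a vertical bar for the SD of 6 mice. In Chd8 V986*/+ mice the Bdnf points of the 3 ages do not overlap (10.10 to 10.41, 9.80 to 10.02 and 9.53 to 9.68), whereas WT mice are spread up to 10.53 at 12 months.

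Bdnf declined in steps in Chd8 V986*/+ cortex. Its values lay between 10.10 and 10.41 (median 10.18) at 1 month, between 9.80 and 10.02 (median 9.93) at 6 months and between 9.53 and 9.68 (median 9.61) at 12 months, so that no mouse of one age overlapped the next. Bdnf fell by 0.29 ± 0.05 from 1 to 6 months on the VST scale and by 0.32 ± 0.05 from 6 to 12 months (limma, adjusted p = 0.0013 and 0.0081). Over the 11 months it fell by 0.62 ± 0.05 (adjusted p = 3.27e-07), to 65.2% of the 1-month level. The first and second steps were not called in one fit of all 48 samples (adjusted p = 0.20 and 0.39), whose spread includes that of the embryos and of WT mice, and the whole span was.

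Bdnf in WT cortex had medians of 10.08, 9.996 and 9.84 at the same ages, with ranges of 9.90 to 10.32, 9.68 to 10.37 and 9.54 to 10.53. The 12-month mice were the most spread (SD 0.40, against 0.06 in Chd8 V986*/+ mice), with mice 2 and 5 above 10.3 and mice 1 and 3 below 9.6. The differences were −0.10 ± 0.11 from 1 to 6 months, −0.07 ± 0.16 from 6 to 12 months and −0.17 ± 0.14 over the whole span (adjusted p = 0.59, 0.91 and 0.48). A decline was thus called in Chd8 V986*/+ cortex and not in WT, but the difference between the genotypes was not called for any interval. It was −0.45 ± 0.21 over the whole span (95% confidence interval −0.88 to −0.02, unadjusted p = 0.040, adjusted p = 0.43), −0.20 ± 0.21 from 1 to 6 months and −0.25 ± 0.21 from 6 to 12 months. This difference was estimated in one fit of all 48 samples, whose spread includes that of the embryos (SD 0.52 in WT). It was not tested on the postnatal ages alone.

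Ngfr climbed slowly back from its low at 1 month, in both genotypes. In Chd8 V986*/+ mice, its values lay between 5.09 and 6.70 (median 5.56) at 1 month, 5.99 and 6.69 (median 6.32) at 6 months and 6.64 and 7.71 (median 7.06) at 12 months. Most mice of each age were above most mice of the age before, and neighboring ages overlapped. Ngfr rose by 0.69 ± 0.22 from 1 to 6 months and by 0.77 ± 0.17 from 6 to 12 months (adjusted p = 0.036 and 0.034), the latter not called in one fit of all 48 samples (adjusted p = 0.11). Over the whole span it rose by 1.46 ± 0.23 (adjusted p = 0.00014), 2.75-fold on the VST scale.

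In WT mice, Ngfr had medians of 5.76, 5.98 and 6.57 at 1, 6 and 12 months. It rose by 0.83 ± 0.18 over the whole span (adjusted p = 0.0059), and the steps of 0.29 ± 0.22 and 0.53 ± 0.19 were not called (adjusted p = 0.40 and 0.72). The increase over the whole span was 0.63 ± 0.31 larger in Chd8 V986*/+ than in WT cortex, which was not called (95% confidence interval 0.00 to 1.26, unadjusted p = 0.049, adjusted p = 0.45). Every mouse of 12 months was below every embryo in both genotypes.

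Ntf3 rose from 1 to 12 months in both genotypes. WT mice went from between 5.23 and 5.62 to between 5.56 and 5.85 and Chd8 V986*/+ mice from between 4.80 and 5.81 to between 5.44 and 5.87, with overlap in both. The increase was 0.34 ± 0.11 in WT and 0.50 ± 0.17 in Chd8 V986*/+ cortex (adjusted p = 0.050 and 0.035). The WT call was lost without WT 1-month mouse 2 and in one fit of all 48 samples (adjusted p = 0.18).

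Gfra1, Ntrk3 and Ret had 1 postnatal call each. Gfra1 fell by 0.14 ± 0.05 on the VST scale from 1 to 6 months in WT cortex (adjusted p = 0.042), from a range of 10.65 to 10.87 to one of 10.50 to 10.66, and from 6 to 12 months it differed by 0.16 ± 0.07 in the other direction (unadjusted p = 0.023, adjusted p = 0.72). Ntrk3 fell by 0.13 ± 0.04 from 1 to 12 months in Chd8 V986*/+ cortex (adjusted p = 0.011) and differed by −0.13 ± 0.07 in WT (adjusted p = 0.24), the same size on the other side of the threshold. Ret fell by 0.39 ± 0.13 from 1 to 12 months in WT (adjusted p = 0.057) and differed by −0.18 ± 0.12 in Chd8 V986*/+ cortex (adjusted p = 0.25). The WT call of Ret was lost without any of WT 1-month mice 1, 2 or 3 or WT 12-month mice 1 or 3, and the Gfra1, Ntrk3 and Ret calls were lost in one fit of all 48 samples (adjusted p = 0.48, 0.15 and 0.22). Ntrk2 and Gfra2 were not called in any postnatal comparison, with differences between −0.17 and 0.06. In Chd8 V986*/+ cortex, Gfra2 came below the threshold from 1 to 6 months without 1-month mouse 1 or 6-month mouse 3 or 6 (−0.22, −0.20 and −0.21) and from 1 to 12 months without 1-month mouse 1 (−0.16), and Ntrk2 did so from 1 to 12 months without 1-month mouse 3 (−0.11).

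Regional markers varied between the postnatal dissections, and their part in these changes was not tested. The mean VST level of 6 hippocampal markers ranged from 6.85 to 7.90 in Chd8 V986*/+ mice of 6 months and from 5.83 to 7.29 at 12 months, and in WT mice from 7.14 to 7.85 and from 7.16 to 7.75. The mean of 8 meningeal markers ranged from 7.27 to 8.35 in Chd8 V986*/+ mice at 6 months and from 7.27 to 8.30 at 12 months. At 1 month it ranged from 6.41 to 8.24 in Chd8 V986*/+ and from 7.57 to 8.36 in WT mice. The mean of 7 choroid plexus markers at 1 month ranged from 5.46 to 8.53 in Chd8 V986*/+ and from 5.52 to 8.14 in WT mice. That of 12 striatal markers ranged from 10.09 to 10.85 and from 9.24 to 10.99. All 6 hippocampal and 8 meningeal markers were above the filter in every postnatal group. In bulk tissue, fewer cells of a type and less RNA per cell cannot be told apart.

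Genotype was the next comparison, whether the 8 genes differ between Chd8 V986*/+ and WT cortex of the same age. No gene of the 8 was called by limma at any age, where 0.00593%, 0.139%, 0.0927% and 0.0463% of all tested genes were called at E14.5, 1, 6 and 12 months. At an unadjusted p below 0.05, the counts were 0, 0, 0 and 2 of 8, where 4.56%, 8.8%, 7.59% and 11.6% of all tested genes passed. With the replicate number as a block, 3 of 8 passed at E14.5 (Gfra1, Gfra2 and Ntrk2, unadjusted p = 0.021, 0.034 and 0.032, adjusted p between 0.38 and 0.40), with none called. The genotypes overlapped for every gene at every age.

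**Figure D3:**
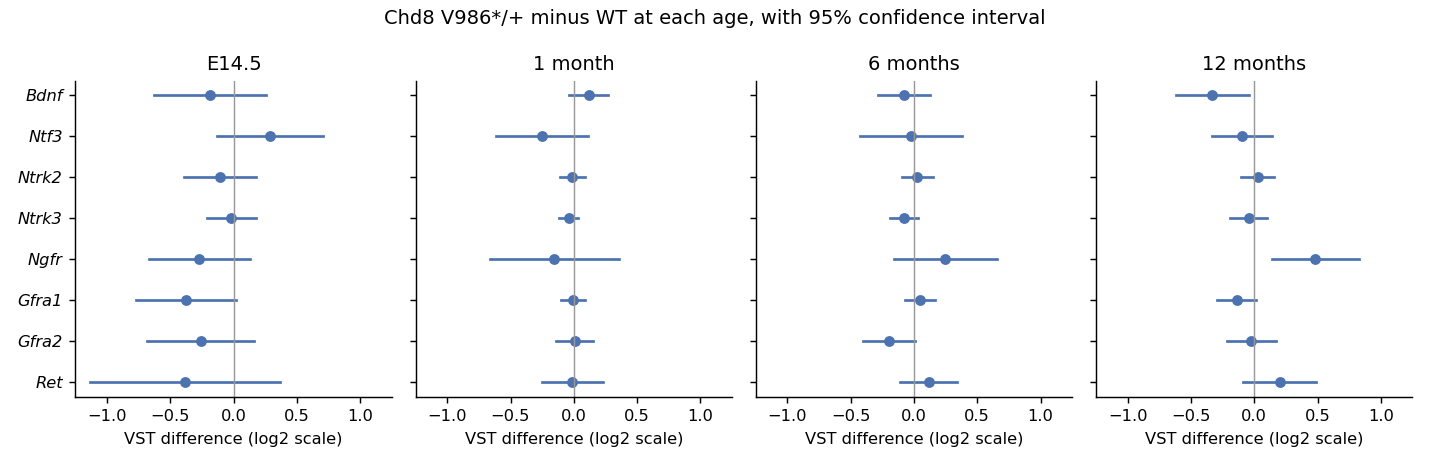
Difference in VST expression (log2 scale, horizontal axes) between Chd8 V986*/+ and WT cortex for the 8 genes at each age, with points for the difference of the means of 6 against 6 animals and lines for the 95% confidence interval from limma. The widest interval is that of Ret at E14.5, from −1.13 to 0.37, and the only intervals that leave out 0 are those of Bdnf and Ngfr at 12 months.

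At 12 months, Ngfr was between 6.64 and 7.71 (median 7.06) in Chd8 V986*/+ and between 6.29 and 7.04 (median 6.57) in WT mice. Of the 6 Chd8 V986*/+ mice, 3 were above the highest WT mouse. The difference was 0.48 ± 0.16 (95% confidence interval 0.14 to 0.82, unadjusted p = 0.0091, adjusted p = 0.29). It was 0.30 in a fit that included the mean level of markers of the midbrain, hindbrain and spinal cord, of which 22 of 29 in WT and 23 of 29 in Chd8 V986*/+ mice were under the filter at this age. Bdnf was between 9.53 and 9.68 in Chd8 V986*/+ and between 9.54 and 10.53 in WT mice, and 4 of 6 WT mice were above all Chd8 V986*/+ mice. The difference was −0.33 ± 0.14 (95% confidence interval −0.62 to −0.05, unadjusted p = 0.026, adjusted p = 0.36), and −0.21 without WT mouse 5 (adjusted p = 0.59). At the same age, all 6 hippocampal markers and all 12 striatal markers were lower in Chd8 V986*/+ cortex (median −0.56 and −0.30, none called). With the striatal mean as a covariate the Bdnf difference was −0.35, and the part of the hippocampal markers in it was not tested.

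The other genes at 12 months differed by between −0.14 (Gfra1, 95% confidence interval −0.29 to 0.01) and 0.20 (Ret, −0.09 to 0.49). The tightest interval was that of Ntrk2, −0.11 to 0.16 around a difference of 0.03. At 6 months, the gene with the lowest p in limma was Gfra2 (unadjusted p = 0.056, adjusted p = 0.675), with values between 10.67 and 11.04 in Chd8 V986*/+ and between 10.68 and 11.29 in WT mice and a difference of −0.20 ± 0.10. At 6 months, all 8 oligodendrocyte markers and all 7 choroid plexus markers were lower in Chd8 V986*/+ cortex (median −0.23 and −0.51) and all 7 astrocyte markers higher (median 0.13). None of these was called, and their part was not tested. At 1 month, the differences were between −0.25 (Ntf3, 95% confidence interval −0.62 to 0.11) and 0.12 (Bdnf, −0.04 to 0.27), and for Ntrk2, Ntrk3 and Gfra1 all intervals lay between −0.11 and 0.09. All 8 meningeal markers were lower in Chd8 V986*/+ cortex at 1 month (median −0.57), and all 7 choroid plexus and 12 striatal markers higher (median 0.61 and 0.33), with none called. Apart from a fit with the striatal mean, their part was not tested. The signs of the differences of Ntrk2, Gfra1 and Ret at 1 month, all between −0.01 and 0, changed with the scaling.

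At E14.5, 7 of 8 genes were lower in Chd8 V986*/+ embryos, with a median difference of −0.22 against 0.00 over all genes, and none was called. Ret differed by −0.38 ± 0.35 and Gfra1 by −0.38 ± 0.19 (unadjusted p = 0.29 and 0.063, both with an adjusted p of 0.98). Ngfr differed by −0.27 ± 0.19, Gfra2 by −0.26 ± 0.20 and Bdnf by −0.19 ± 0.21. Ntf3 was the exception, with a difference of 0.29 ± 0.20. WT embryos were more spread than Chd8 V986*/+ embryos for 7 of the 8 genes, the exception being Ntrk3.

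Levels of caudal markers also differed between these embryos. The mean VST level of 29 genes of the midbrain, hindbrain and spinal cord, most of them Hox genes that the cortex does not use, ranged from 2.87 to 6.03 in WT (median 3.99) and from 2.88 to 3.90 in Chd8 V986*/+ embryos (median 3.19). In Chd8 V986*/+ embryos 18 and in WT embryos 7 of the 29 genes had a mean under the filter. Without a filter, 27 of the 29 genes had a lower mean in Chd8 V986*/+ embryos (median difference −0.997), and 21 of 29 did without WT embryo 5 (median −0.32). None of the 20 that passed the filter was called, and some passed through their WT level alone. All 8 sensory ganglion markers were lower (median −0.85) and 9 of 10 cortical markers higher (median 0.31), with none called. WT embryo 5 had the highest caudal mean (6.03), the highest ganglion mean (7.61, against 4.39 to 5.70 in the other WT embryos) and, among all embryos, the highest values of Ret (9.38), Gfra1 (10.79), Ngfr (10.19) and Bdnf (6.67).

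**Figure D4:**
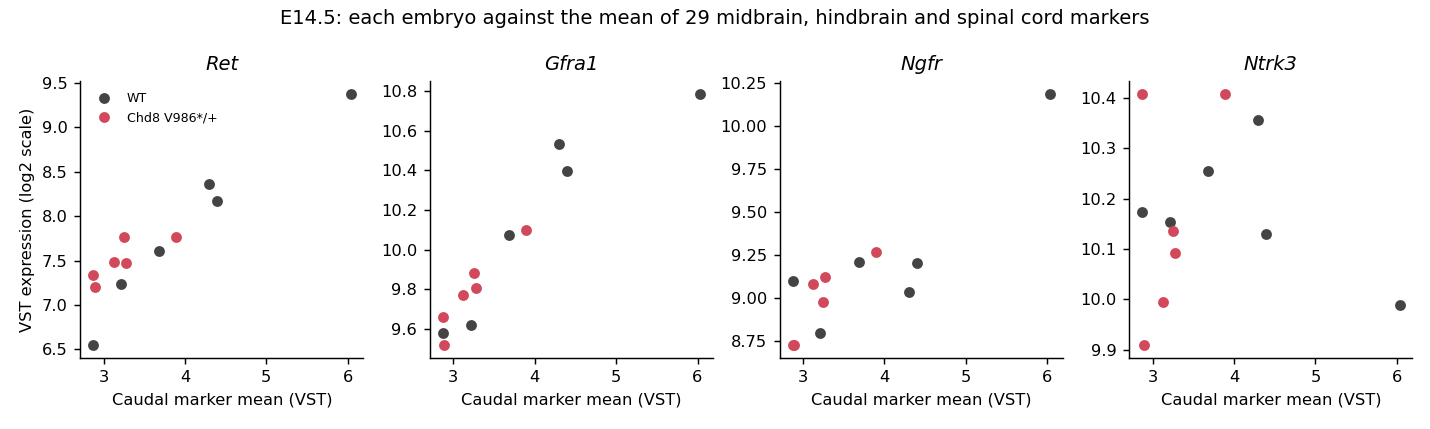
VST expression (log2 scale, vertical axes) of Ret, Gfra1, Ngfr and Ntrk3 in each E14.5 embryo against the mean VST level of 29 markers of the midbrain, hindbrain and spinal cord (horizontal axes), in 6 WT (grey) and 6 Chd8 V986*/+ (red) embryos. The WT embryo at a marker mean of 6.03 has the highest Ret, Gfra1 and Ngfr, and its Ntrk3 (9.99) is the lowest among WT embryos.

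Without WT embryo 5, the E14.5 differences were −0.08 for Ret, −0.25 for Gfra1, −0.08 for Ngfr, −0.18 for Gfra2 and −0.10 for Bdnf. Bdnf was also nearer 0 without WT embryo 2 (−0.11) or 3 (−0.12). Without WT embryo 6, which had the lowest caudal mean among WT embryos (2.87), they were larger, −0.65 for Ret, −0.40 for Gfra2 and −0.37 for Bdnf (adjusted p = 0.38, 0.35 and 0.30). With the caudal marker mean as a covariate, the sign turned for Ret (0.33), Bdnf (0.09), Ngfr (0.07), Ntrk2 (0.04) and Gfra2 (0.04), and the differences of Gfra1 and Ntf3 shrank to −0.01 and 0.03. The Ret value in this fit was 0.33 ± 0.13 (limma, unadjusted p = 0.025), and no gene was called.

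Whether the genotype difference changed with age was tested in one fit of all 48 samples, whose spread includes that of the embryos in every interval. None of the 8 genes was called by limma from E14.5 to 1 month, from 1 to 6 months or from 6 to 12 months, where 0%, 0% and 0.0578% of all genes were called, nor from 1 to 12 months, where 0.00578% were. At an unadjusted p below 0.05, the counts were 2, 0, 0 and 2 of 8, where 4.6%, 3.36%, 8.68% and 11.1% of all 17311 genes passed. The 2 genes from E14.5 to 1 month were Ntf3 (−0.54 ± 0.25, unadjusted p = 0.036) and Gfra1 (0.37 ± 0.16, unadjusted p = 0.028), both with an adjusted p of 0.999, and the Gfra1 value was 0.25 without WT embryo 5. The 2 from 1 to 12 months were Bdnf and Ngfr, given above.

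The rest of the ligand and receptor lists also held no call between genotypes at any age. At an unadjusted p below 0.05, the ligands had 1, 1, 0 and 2 of 8 genes and the receptors 0, 1, 0 and 2 at E14.5, 1, 6 and 12 months. Of the genes outside the 8, Nrtn differed by −0.38 ± 0.14 at E14.5 (adjusted p = 0.98), Ntf5 by 0.99 ± 0.28 at 1 month (adjusted p = 0.31), Artn by 0.60 ± 0.20 at 12 months (adjusted p = 0.29) and Gfra4 by 0.14 ± 0.06 at 1 month and 0.14 ± 0.06 at 12 months (adjusted p = 0.50 and 0.43). Gdnf, Pspn, Sort1 and Ncam1 had no unadjusted p below 0.05 at any age, nor had Gfra3 at E14.5, the only age at which it passed the filter. The E14.5 difference of Gfra3 was −0.23 ± 0.41, and 0.19 ± 0.21 without WT embryo 5. Ntf5, Artn and Pspn lie near the floor, where the scale understates differences.

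Signaling genes downstream of these receptors were described in 5 further lists: 22 adaptors that couple Trk receptors and Ret to Ras, PLC-gamma and Rap1, 8 partners of p75, 10 genes that process neurotrophin precursors, 9 regulators of Bdnf transcription, and 16 feedback regulators and targets of ERK signaling. None of their genes was called between genotypes at any age. Among the adaptors, the lowest unadjusted p was that of Frs3 at E14.5 (−0.19 ± 0.10) and at 12 months (0.17 ± 0.06), of Shc1 at 1 month (−0.29 ± 0.10, adjusted p = 0.37) and of Plcg1 at 6 months (−0.15 ± 0.04, adjusted p = 0.38). Among the p75 partners, it was that of Sorcs2 (−0.25 ± 0.17, and −0.15 without WT embryo 5), Bex3 (−0.07 ± 0.03), Ripk2 (−0.08 ± 0.08) and again Ripk2 (0.16 ± 0.09) in order of age.

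Among the processing genes, the same order gave Pcsk1 (−0.28 ± 0.14), Serpini1 (0.08 ± 0.06), Pcsk5 (−0.11 ± 0.07) and Plat, which encodes tissue plasminogen activator (−0.37 ± 0.14, adjusted p = 0.33). Among the regulators of Bdnf, it gave Mef2c (0.40 ± 0.17), Mef2c (−0.10 ± 0.07), the activity-induced factor Npas4 (−0.32 ± 0.22) and Usf1 (−0.13 ± 0.06). Among the ERK genes, it gave Vgf (0.32 ± 0.12), Junb (−0.46 ± 0.12, adjusted p = 0.21), Etv4 (0.20 ± 0.09) and Dusp4 (−0.43 ± 0.13, adjusted p = 0.27). The medians of the 5 lists were between −0.06 and 0.09, against medians of all genes between −0.003 and 0.005.

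With age, many genes of these 5 lists were called, and those named in this and the next 2 paragraphs were chosen after their values were seen. From E14.5 to 1 month, 14 of 16 ERK genes rose and 2 fell in both genotypes, where 43.4% and 43.7% of all genes were called higher and 42.3% and 42.4% lower, with list medians of 2.10 and 1.98 against 0.02 over all genes. Egr1, an immediate early gene, rose by 6.997 ± 0.13 in WT and 6.90 ± 0.12 in Chd8 V986*/+ cortex, Arc by 6.40 ± 0.17 and 5.71 ± 0.13 and the secreted neuropeptide precursor Vgf by 5.15 ± 0.09 and 4.87 ± 0.10. The phosphatase gene Dusp4 and the feedback inhibitor Spry1 were the 2 that fell, Dusp4 by 3.22 ± 0.14 on the VST scale in WT and Spry1 by 0.66 ± 0.08.

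From 6 to 12 months, when Bdnf fell in Chd8 V986*/+ cortex, 6 of 16 ERK genes fell there and none rose, where 2.36% of all genes were called lower. The list median was −0.27 against −0.002 over all genes. Dusp4 fell by 0.58 ± 0.10 on the VST scale, Spred2 by 0.35 ± 0.06, Spry4 by 0.30 ± 0.07, Spred1 by 0.29 ± 0.05, Etv5 by 0.28 ± 0.06 and Vgf by 0.25 ± 0.07 (adjusted p between 0.012 and 0.070). In WT cortex none of the 16 was called over the same interval (2 at unadjusted p below 0.05, median −0.09), where 0.00579% of all genes were. The difference between the genotypes in this change was called for none of the 16 (4 at unadjusted p below 0.05, median −0.09). Of the regulators of Bdnf, Creb1, which encodes CREB, fell by 0.19 ± 0.05 and Srf by 0.25 ± 0.05 in Chd8 V986*/+ cortex. Of the processing genes, the prohormone convertase Pcsk1 fell by 0.42 ± 0.08 and Plat by 0.49 ± 0.13, and of the adaptors Crk by 0.16 ± 0.04 and Rapgef1 by 0.14 ± 0.04, with none of the p75 partners called. In WT cortex no gene of these lists was called over this interval, and neither was any genotype difference in the change. From 1 to 12 months, Srf (−0.16 ± 0.06), Plat (−0.36 ± 0.13) and Rapgef1 (−0.35 ± 0.10) were called lower in WT too, where 21.4% of all genes were called. Creb1, Pcsk1 and Crk were not called there. Hippocampal markers were lower in Chd8 V986*/+ mice of 12 months, as given above.

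Between 1 and 6 months, several pathway genes were called in the same direction in both genotypes. Kidins220, a scaffold of Trk receptors, rose by 0.14 ± 0.04 in WT and 0.13 ± 0.04 in Chd8 V986*/+ cortex, and Frs2, the main docking protein of Trk receptors, by 0.12 ± 0.03 and 0.16 ± 0.03. Lingo1, a co-receptor of p75 in myelin signaling, fell by 0.28 ± 0.08 and by 0.34 ± 0.05 on the VST scale. Serpini1 (neuroserpin, the inhibitor of tissue plasminogen activator) rose by 0.37 ± 0.06 and 0.31 ± 0.04 and Crtc1, a coactivator of CREB, by 0.23 ± 0.06 and 0.22 ± 0.04. Junb rose by 0.73 ± 0.17 and Arc by 0.60 ± 0.23 in Chd8 V986*/+ cortex and were not called in WT. The difference between the genotypes in this change was called for none of the 16 ERK genes (2 at unadjusted p below 0.05, limma). Of all genes, 0% were called in that test.

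Finally, the genes that varied most like each of the 8 between animals of the same group were listed, by Pearson's r over 48 samples after removal of the 8 group means, as a description. The samples share dissection and library differences, and genes are not independent of each other. Bdnf varied most like Cx3cl1 (r = 0.83), Fmnl1 (0.83) and Cbln4 (0.83), Gfra2 like Spock1 (0.90), Cacng2 (0.90) and Fam155a (0.90), Ntrk2 like Ncam1 (0.90), Arrb1 (0.88) and Agap1 (0.88) and Ntrk3 like Dock9 (0.81), Pcmtd1 (0.81) and Ncoa1 (0.81). Ngfr was closest to Lrig1 (0.72), Magel2 (0.69) and Ednrb (0.67) and Ntf3 to Plk4 (0.70), Rnf43 (0.64) and Helb (0.62). Gfra1 was close to Tph2 (0.85) and Spon1 (0.82), and Ret to Spon1 (0.88), Nefh (0.85) and Adcyap1 (0.84).

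The r of Gfra1 with Tph2, the serotonin synthesis enzyme of the brainstem, and of Ret with its closest genes was lower in postnatal samples. The 48 samples include WT embryo 5, which had the highest Ret and Gfra1 among all embryos, and r without it was not computed. Over the 36 postnatal samples alone, the r of Gfra1 with Tph2 and Spon1 was 0.34 and 0.18, and that of Ret with Spon1, Nefh and Adcyap1 was 0.37, 0.39 and 0.37. For Bdnf the postnatal values were 0.76, 0.76 and 0.72, for Gfra2 0.80, 0.80 and 0.74 and for Ntrk3 0.77, 0.77 and 0.79. The values of Ntrk2 were also lower, at 0.68 with Ncam1, 0.65 with Arrb1 and 0.65 with Agap1. Those of Ngfr were 0.71, 0.71 and 0.60 and those of Ntf3 0.72, 0.58 and 0.59. Between the 8 genes themselves, Gfra1 and Ret had an r of 0.70 over all 48 samples and −0.18 over the 36 postnatal samples, and Bdnf and Gfra2 of 0.68 and 0.39.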

How the data were processed

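The values deposited by the authors are VST values on a log2 scale from DESeq2, in 1 table of 24444 genes and 48 samples of cortical RNA. Reads had been mapped by the authors with STAR (mm9), expression estimated with Salmon, and a batch effect removed. The batch is not named in the sources used here, and replicates 1 to 3 and 4 to 6 had equal means for every gene. The listed depth was 13611052 to 61621924 reads per sample. Depth per gene is unknown, so precision is given by the spread of 6 animals.

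Groups came from the sample labels. Genes whose mean over the compared samples was at least 0.5 above the floor (2.1433, 15.7% of values) were tested with limma 3.58.1 in R 4.3.3 with an intensity trend, on the 2 groups compared, or on all 48 samples for differences of genotype effects. Benjamini-Hochberg adjustment covered all tested genes, with calls below 0.1. The fits between genotypes and those with age between neighboring ages in WT were tested on simulated data with normal noise and changes of 1. The fits with age in Chd8 V986*/+ cortex and the differences of genotype effects were not. The 8 genes, the pathway lists and the marker lists were chosen with earlier results of these data known. The rule for named genes took the 8 genes, all ligands and receptors, of each other list the genes called between genotypes and the lowest p per genotype comparison, and the 3 genes most correlated with each of the 8. Genes of the other lists named for changes with age were chosen after their values were seen. The span from 1 to 12 months, and the other ligands and receptors without WT embryo 5, were added after seeing the values. Alternatives were a replicate block, other filters, no trend, quantile normalization, median centring, replicate set or marker means as covariates, one fit of all samples and leaving out each sample. Python 3.11.15, pandas 2.3.3 and matplotlib 3.10.9 were used. A few genes that these rules take are not reported here.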

Additional observations from a re-analysis of the deposited data

Results flagged for a closer look

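The 8 genes were examined in 64 groups of 6 animals for a single animal far from the others, by Dixon's test at the 95% level, which chance alone passes in about 1 of 20 groups. In 4 groups 1 animal stood apart. Ngfr was highest in WT embryo 5 (10.19, the next at 9.21), the embryo that also had the highest caudal and ganglion markers. Ngfr was highest in Chd8 V986*/+ 1-month mouse 6 (6.70, the next at 5.64). Gfra1 was highest in Chd8 V986*/+ 1-month mouse 2 (10.87, the next at 10.74). Ntrk3 was lowest in WT 12-month mouse 6 (10.69, the next at 10.999). None of the 8 genes had a genotype difference that changed with age beyond the threshold.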

How the results depend on the processing

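No call between genotypes arose for the 8 genes under any alternative. Deviations of same-numbered embryos had a mean correlation of 0.23 between genotypes at E14.5 (range 0.012 to 0.58, 4 of 6 above 0.1), but not every pair was above 0.1 in any comparison, so the numbers were not taken as pairs. With the replicate block the E14.5 genotype differences kept their size with smaller errors (Ntrk2 −0.11 ± 0.044), and the count of called genes differed only for Chd8 V986*/+ cortex from 1 to 6 months, 3 in place of 2, by Gfra2 (−0.17, adjusted p = 0.064, limma). One fit of all 48 samples, whose pooled spread includes that of the embryos, called 0 genes in WT from 1 to 6 months, 1 in Chd8 V986*/+ from 1 to 6 months, 0 in Chd8 V986*/+ from 6 to 12 months and 1 in WT from 1 to 12 months. Leaving out 1 animal gave between 1 and 2 calls in WT from 1 to 6 months (2 without WT 6-month mouse 4, where Ret was added at −0.30) and between 1 and 3 in WT from 1 to 12 months (1 without WT 1-month mouse 2). The fall of Ret in WT from E14.5 to 1 month was not called without the filter or without the trend (adjusted p = 0.14 and 0.12), nor that from 1 to 12 months without the filter (adjusted p = 0.10). In Chd8 V986*/+ cortex, single animals left out also added Ntf3 (0.47, without 1-month mouse 2) and Gfra1 (−0.12, without 6-month mouse 5) from 1 to 6 months, and Gfra1 (−0.13, without 12-month mouse 1 or 4) and Ret (−0.27, without 12-month mouse 3) from 1 to 12 months. Beyond what is stated here, the cause of these changes was not tested.

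Among differences not called, these changed sign. With the caudal marker mean as a covariate at E14.5, they were Bdnf (0.092), Gfra2 (0.038), Ngfr (0.066), Ntrk2 (0.045) and Ret (0.33), and at 6 months Ntf3 (0.080). Between genotypes at 1 month, they were Ntrk2 (0.011) and Ret (0.0050) with quantile normalization, Gfra1 (0.0053) and Ret (0.0008) with median centring and Ret (0.0065) with the striatal covariate. With quantile normalization in Chd8 V986*/+ cortex, they were Ntf3 from E14.5 to 1 month (−0.28), Ntrk2 from 1 to 6 months (0.0084) and Gfra1 from 6 to 12 months (0.0064), and in the difference of genotype effects Ntrk2 from 6 to 12 months (0.021) and Ntrk3 from 1 to 12 months (0.0036).

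Leaving out 1 animal also turned signs of differences near 0. Between genotypes, the ranges were −0.068 to 0.032 for Ntrk3 at E14.5, and at 1 month −0.033 to 0.020 for Gfra1, −0.021 to 0.062 for Gfra2, −0.031 to 0.016 for Ntrk2 and −0.075 to 0.045 for Ret. They were −0.17 to 0.068 for Ntf3 and −0.0063 to 0.068 for Ntrk2 at 6 months, and −0.077 to 0.042 for Gfra2 and −0.0015 to 0.050 for Ntrk2 at 12 months. With age in WT, they were −0.0082 to 0.11 for Gfra2 from 1 to 6 months, −0.19 to 0.0089 for Bdnf from 6 to 12 months and −0.017 to 0.073 for Gfra1 from 1 to 12 months. In Chd8 V986*/+ cortex, they were −0.085 to 0.13 for Ntf3 from E14.5 to 1 month, −0.033 to 0.041 for Ntrk2 from 1 to 6 months and −0.063 to 0.016 for Gfra1 from 6 to 12 months. In the difference of genotype effects, they were −0.094 to 0.25 for Ngfr and −0.071 to 0.029 for Ntrk3 from E14.5 to 1 month. From 6 to 12 months they were −0.17 to 0.070 for Ntf3, −0.041 to 0.033 for Ntrk2, −0.030 to 0.065 for Ntrk3 and −0.012 to 0.15 for Ret, and from 1 to 12 months −0.085 to 0.035 for Gfra2 and −0.069 to 0.025 for Ntrk3.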
